A study of Homo sapiens with 8 samples.

Results

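Sterol regulatory element-binding proteins (SREBPs) are transcription factors that are made as membrane proteins of the endoplasmic reticulum, and 8 genes of the machinery that senses sterols and releases them were followed here in statin-treated multiple myeloma (MM) cells. These were SREBF1, SREBF2, SCAP, INSIG1, INSIG2, MBTPS1, MBTPS2 and STARD4, taken by gene symbol from the 58219 genes that each file lists. All 8 passed the filter on low counts and were among the 13129 protein-coding genes tested. None of the 8 encodes a lipoprotein receptor, so that the set describes sensing, processing and sterol transfer rather than lipoprotein uptake.

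The study asked how t(4;14)-positive MM cells, plasma cell tumour cells with an exchange between chromosomes 4 and 14, respond to the inhibition of the mevalonate pathway, the route to cholesterol, by a statin. RNA was sequenced from 2 established t(4;14)-positive lines, H929 (NCI-H929) and KMS11, that had been kept for 24 h with fluvastatin at 2 µM or with its solvent, ethanol. The groups were H929 in ethanol, H929 in fluvastatin, KMS11 in ethanol and KMS11 in fluvastatin, each with 2 biological replicates, which gave 8 libraries. Each line derives from 1 tumour, no t(4;14)-negative line was among these libraries, and the labels do not say whether replicates were separate cultures, so that p values measure only the spread between these samples.

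Libraries held 26702515 to 41910446 expected counts, which are the fragments that the authors' software assigned to genes. The plasma cell markers SDC1, TNFRSF17, IRF4, PRDM1, XBP1 and JCHAIN were present in all libraries, with SDC1 at 38.8 to 122 TPM (abundance scaled by transcript length and library total), and NSD2, a target of the translocation, was at 83.6 to 141 TPM. FGFR3, the other target, averaged 88.7 TPM in KMS11 and 8.62 TPM in H929 in ethanol. The B cell markers PAX5 and MS4A1 reached at most 0.02 and 0.01 TPM, the myeloid marker LYZ at most 0.17 TPM and the T cell marker CD3E 0.25 to 3.54 TPM. KMS11 fluvastatin replicate 1 stood apart from the other KMS11 libraries in how counts varied with the GC content of genes, and estimates with that trend removed are given for the members that it moved most.

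In sterol-replete cells, SCAP holds the SREBP precursors and is itself held in the endoplasmic reticulum by the INSIG proteins. When sterols fall, SCAP escorts the precursors to the Golgi, where the site-1 protease (MBTPS1) and the site-2 protease (MBTPS2) cut them in turn and free the part that enters the nucleus. SREBF2 chiefly drives genes of cholesterol synthesis and SREBF1 genes of fatty acid synthesis, and INSIG1, SREBF2 and STARD4 are themselves known targets of the pathway.

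Promoters of these 3 known targets are shown because they carry the members with the largest estimates in KMS11. Each is the RefSeq sequence of GRCh38.p14 over 300 bases that end shortly after the gene's start, 5′ to 3′ on the gene's strand, at chr22:41832855-41833154 on the plus strand for SREBF2, chr7:155297628-155297927 on the plus strand for INSIG1 and chr5:111512486-111512785 on the minus strand for STARD4. Capitals mark matches on either strand to any of TCACNCCAC (a sterol regulatory element core), CACGTG (an E-box), CCAAT (bound by the factor NF-Y) and GGGCGG (a GC box), and neighbouring GC box matches can overlap.
SREBF2: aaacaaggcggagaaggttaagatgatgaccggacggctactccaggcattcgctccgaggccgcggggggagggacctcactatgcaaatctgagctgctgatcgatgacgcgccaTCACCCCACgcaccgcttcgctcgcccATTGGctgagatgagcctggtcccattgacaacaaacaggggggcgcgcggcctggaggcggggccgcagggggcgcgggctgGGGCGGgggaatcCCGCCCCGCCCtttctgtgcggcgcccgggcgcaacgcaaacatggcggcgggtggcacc
INSIG1: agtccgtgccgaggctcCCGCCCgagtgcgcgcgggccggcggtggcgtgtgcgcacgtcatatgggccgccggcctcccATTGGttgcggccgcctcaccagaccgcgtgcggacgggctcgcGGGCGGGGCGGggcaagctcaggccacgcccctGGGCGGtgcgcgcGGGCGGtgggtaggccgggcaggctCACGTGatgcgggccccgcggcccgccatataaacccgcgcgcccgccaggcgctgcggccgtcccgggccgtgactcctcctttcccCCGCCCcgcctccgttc
STARD4: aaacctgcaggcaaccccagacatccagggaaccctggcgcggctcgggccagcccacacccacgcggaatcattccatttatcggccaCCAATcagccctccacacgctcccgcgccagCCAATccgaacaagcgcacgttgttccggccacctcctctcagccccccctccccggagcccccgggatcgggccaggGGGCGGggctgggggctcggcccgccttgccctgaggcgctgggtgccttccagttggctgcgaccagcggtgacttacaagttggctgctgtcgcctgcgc
SREBF2 held the single element core of the 8 genes, with its first base at -133 from the start site, and a CCAAT match at -106. The core was present in 1.13% of 35116 promoters of the same length. INSIG1 held an E-box at -55, a motif found in 7.26% of promoters, a CCAAT match at -170 and 6 GC boxes. STARD4 held 2 CCAAT matches and 1 GC box, motifs found in 34.6% and 45.0% of promoters, respectively. MBTPS1 and MBTPS2 held none of the 4 motifs. A match describes these letters in this window and no more.

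In KMS11 cells, 2 of the 8 genes rose in fluvastatin, the sterol sensor gene INSIG1 by 2.25-fold and the sterol transfer gene STARD4 by 1.59-fold, against 3.12% of all genes tested that changed in either direction. In H929 cells, 2 other genes changed. The site-1 protease gene MBTPS1 fell by 0.31 on the log2 scale and the site-2 protease gene MBTPS2 rose 1.42-fold. In H929, 2 of the 8 was a smaller share than the 42.0% of all genes tested that changed. These 4 of the 8 also differed between the lines in their response, against a background of 23.2%.

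INSIG1 encodes the retention protein of the endoplasmic reticulum whose own transcription follows SREBP activity, and lies at chr7:155297776-155310235. Its level in KMS11 was 575 and 634 CPM (counts scaled by library size with edgeR's TMM factors) in ethanol and 1329 and 1389 CPM in fluvastatin. In H929 the 2 ethanol libraries held 176 and 156 CPM and the 2 fluvastatin libraries 159 and 95.3 CPM. The KMS11 groups were far apart, whereas in H929 the first fluvastatin library lay between the 2 ethanol libraries. The mean in KMS11 went from 604 ± 41.4 to 1359 ± 42 CPM (SD, n = 2 each). The log2 fold change was 1.17 ± 0.19 (SE) in KMS11 (edgeR quasi-likelihood test, Benjamini-Hochberg adjusted p = 0.0109) and -0.38 ± 0.19 in H929 (edgeR adjusted p = 0.137). The response of KMS11 exceeded that of H929 by 1.55 ± 0.27 on the log2 scale (edgeR adjusted p = 0.00382).

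STARD4, at chr5:111496033-111512590, encodes a soluble protein that carries cholesterol between membranes. It stood at 39.0 and 40.2 CPM in KMS11 in ethanol and at 57.9 and 67.7 CPM in fluvastatin. The corresponding H929 values were 44.4 and 45.3 CPM, then 38.9 and 32.4 CPM. Neither line's groups overlapped, and the direction was opposite. The log2 fold change was 0.67 ± 0.12 in KMS11 (edgeR adjusted p = 0.0176) and -0.33 ± 0.12 in H929, which missed the threshold (edgeR adjusted p = 0.0509). The difference between the lines was 1.0 ± 0.17 (edgeR adjusted p = 0.00355).

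On the log2(TPM + 1) scale, INSIG1 passed in KMS11 at 1.05 and STARD4, at 0.54, did not (limma adjusted p = 0.037 and 0.105). Both KMS11 calls by edgeR also rested on the pair of ethanol libraries. Without KMS11 ethanol replicate 1 or replicate 2, the adjusted p of INSIG1 was 0.157 or 0.103 and that of STARD4 was 0.245 or 0.211 by edgeR's test, with log2 fold changes of 1.07 or 1.21 and 0.62 or 0.66. In H929, INSIG1 was at -0.80 without H929 fluvastatin replicate 1 but at -0.06 without H929 fluvastatin replicate 2. STARD4 in H929 was at -0.47 without H929 fluvastatin replicate 1 and at -0.21 without H929 fluvastatin replicate 2. It was at -0.36 without KMS11 fluvastatin replicate 1 and at -0.37 without KMS11 fluvastatin replicate 2. The differences between the lines passed the threshold for both genes in all of the 19 alternative settings that gave a value, at 1.23 to 1.97 for INSIG1 and 0.87 to 1.35 for STARD4 on the log2 scale.

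**Figure D1:**
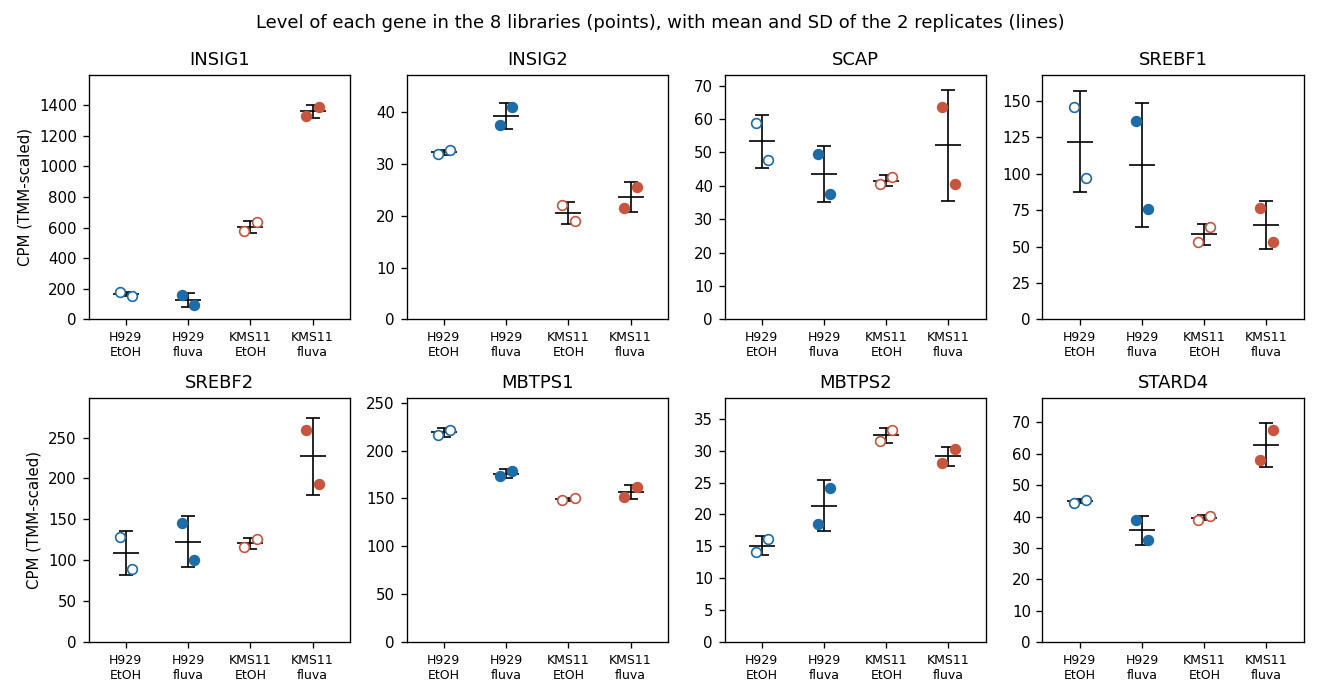
CPM of the 8 genes (vertical axes, each from 0) in the 4 groups of line and treatment, with open points for ethanol (EtOH), filled points for fluvastatin (fluva), and lines for the mean and SD of 2 replicates. INSIG1 stood at 1329 and 1389 CPM in fluvastatin-treated KMS11 cells, above every other library, while SREBF1 varied more between replicates than between treatments.

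The SREBP precursors are encoded by SREBF2 and SREBF1. SREBF2, at chr22:41833105-41907306, encodes SREBP2. It held 116 and 126 CPM in KMS11 in ethanol and 259.8 and 193 CPM in fluvastatin, and in H929 129 and 89.9 CPM in ethanol and 145 and 101 CPM in fluvastatin. The KMS11 groups did not overlap and the H929 groups did. Its log2 fold change was 0.90 ± 0.21 in KMS11, a 1.87-fold higher level whose adjusted p of 0.0502 fell just outside the threshold (edgeR), and 0.17 ± 0.21 in H929 (edgeR adjusted p = 0.555). The difference of 0.74 ± 0.30 did not pass either (edgeR adjusted p = 0.0981). By DESeq2 the KMS11 value was 0.87 and the difference 0.69, both past the threshold (adjusted p = 0.000169 and 0.0367). By edgeR the KMS11 value passed without any 1 of the 4 H929 libraries and, at 1.06, without KMS11 fluvastatin replicate 2. It did not pass without KMS11 ethanol replicate 1 or 2, at 0.82 and 0.93, or without KMS11 fluvastatin replicate 1, at 0.67. The difference passed without H929 ethanol replicate 2 (0.97), H929 fluvastatin replicate 1 (1.03) or KMS11 fluvastatin replicate 2 (0.93). Without any 1 of the other libraries the difference did not pass, at 0.46 to 0.80. In TPM the level in KMS11 was 38.8 and 43.2 in ethanol and 59.9 and 53.6 in fluvastatin. Limma on log2(TPM + 1) gave 0.46 in KMS11 and 0.17 for the difference, neither past the threshold (limma adjusted p = 0.205 and 0.697). The mean effective length that RSEM estimated for SREBF2 was 1978 bases in KMS11 in ethanol and 2403 bases in fluvastatin, and its part in the lower TPM estimate was not tested.

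SREBF1, at chr17:17810399-17837002, encodes SREBP1 and was the member with the highest GC content, 63.2% of its longest transcript. It held 146 and 97.3 CPM in H929 in ethanol, 136 and 75.6 CPM in H929 in fluvastatin, 53.1 and 63.6 CPM in KMS11 in ethanol, and 76.3 and 53.1 CPM in KMS11 in fluvastatin. Treatment groups overlapped in both lines. The log2 fold changes were -0.21 ± 0.28 in H929 and 0.15 ± 0.28 in KMS11, neither past the threshold (edgeR adjusted p = 0.583 and 0.793). The gene overlaps RAI1, which lies on the opposite strand and had 181 to 497 counts per library. The kit marks strand, but the strand setting used for counting is not given in the sources used here, so that reads of the 2 genes may not be fully separated.

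SCAP, the escort protein gene at chr3:47413681-47477126, held 58.8 and 47.7 CPM in H929 in ethanol and 49.4 and 37.5 CPM in fluvastatin. In KMS11 it held 40.6 and 42.7 CPM in ethanol and 63.7 and 40.5 CPM in fluvastatin. The single high value was that of KMS11 fluvastatin replicate 1, the library that stood apart in its GC trend, and groups overlapped in both lines. The log2 fold changes were -0.30 ± 0.21 in H929 and 0.32 ± 0.21 in KMS11 (edgeR adjusted p = 0.284 and 0.378). Without KMS11 fluvastatin replicate 2, which leaves replicate 1 alone in its group, the KMS11 value passed at 0.57 and the difference between the lines at 0.90 (edgeR adjusted p = 0.0319 and 0.00606).

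INSIG2, the second retention gene at chr2:118088452-118110997, is made in many tissues independently of SREBP. It stood at 31.9 and 32.7 CPM in H929 in ethanol, 37.5 and 41.1 CPM in H929 in fluvastatin, 22.1 and 19.1 CPM in KMS11 in ethanol, and 21.6 and 25.6 CPM in KMS11 in fluvastatin. The H929 groups did not overlap, but the log2 fold change of 0.28 ± 0.13 did not pass the threshold (edgeR adjusted p = 0.108), and KMS11 gave 0.19 ± 0.13 (edgeR adjusted p = 0.401). Unlike the INSIG1 responses, those of INSIG2 gave an estimate of the difference between the lines near 0, at -0.09 ± 0.18 (edgeR adjusted p = 0.771).

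The 2 protease genes moved in opposite directions in H929. MBTPS1, at chr16:84053761-84116942, held 216 and 222 CPM in ethanol and 173 and 179 CPM in fluvastatin in H929, and 148 and 150.5 CPM, then 152 and 162 CPM, in KMS11. MBTPS2, at chrX:21839617-21885423, held 14.1 and 16.2 CPM, then 18.5 and 24.2 CPM, in H929, and 31.5 and 33.3 CPM, then 28.1 and 30.2 CPM, in KMS11. Treatment groups did not overlap for either gene in either line. In fluvastatin MBTPS1 was lower and MBTPS2 higher in H929, and the order was the opposite in KMS11, by less. MBTPS1 changed by -0.31 ± 0.08 and MBTPS2 by 0.50 ± 0.15 on the log2 scale (edgeR adjusted p = 0.0142 and 0.0236). In KMS11 the estimates were 0.07 ± 0.08 and -0.15 ± 0.15 (edgeR adjusted p = 0.637 and 0.554).

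The responses of the lines differed by 0.38 ± 0.12 for MBTPS1 and -0.66 ± 0.21 for MBTPS2, KMS11 minus H929 (edgeR adjusted p = 0.0434 and 0.0487). Those differences lost the threshold in 12 and 11, respectively, of 19 alternative settings, among them 7 of the 8 that left out 1 library for MBTPS1 (all but KMS11 fluvastatin replicate 1) and 6 of the 8 for MBTPS2 (all but H929 fluvastatin replicate 1 and KMS11 fluvastatin replicate 2). In H929, the call of MBTPS2 was lost without H929 fluvastatin replicate 2, where its log2 fold change was 0.29 (edgeR adjusted p = 0.221), and without H929 ethanol replicate 1, KMS11 ethanol replicate 1 or KMS11 ethanol replicate 2 (edgeR adjusted p = 0.147, 0.0622 and 0.0624). It was also lost with offsets for GC content and effective length, at 0.20 (edgeR adjusted p = 0.14), where the difference between the lines was -0.27 (edgeR adjusted p = 0.172), and on the log2(TPM + 1) scale, at 0.32 (limma adjusted p = 0.119), as was that of MBTPS1, at -0.26 (limma adjusted p = 0.127). The call of MBTPS1 in H929 was lost without H929 ethanol replicate 2 or either H929 fluvastatin library (edgeR adjusted p = 0.0839, 0.0885 and 0.0552). YY2, a gene on the same strand that lies within MBTPS2, had 33 to 99.2 counts per library, and the division of shared fragments between the 2 was not tested.

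**Figure D2:**
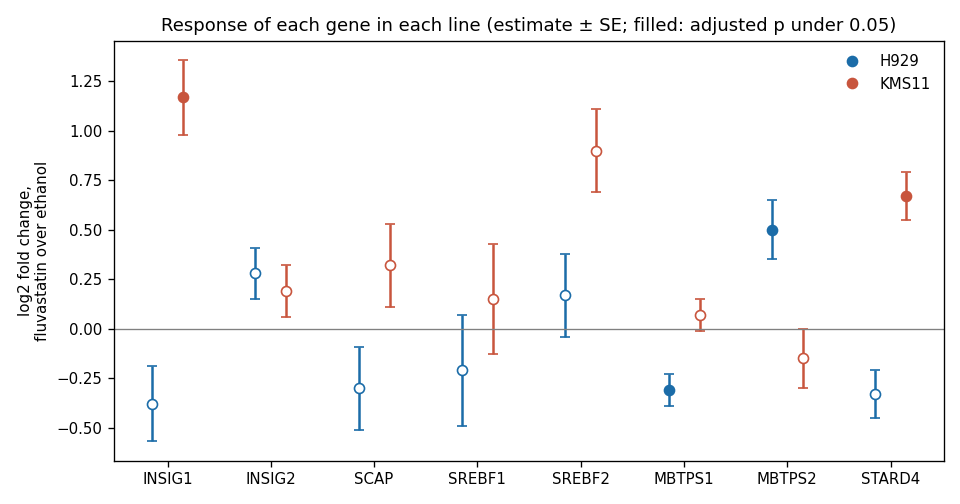
Log2 fold change of fluvastatin over ethanol (vertical axis) for each gene in H929 (blue) and KMS11 (red), with SE bars and filled points for an adjusted p under 0.05. In KMS11 INSIG1 stands at 1.17 and STARD4 at 0.67, while in H929 both lie below 0 at -0.38 and -0.33.

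In the joint fit with the line as a term, 0 of the 8 genes passed the threshold by edgeR's test, against 10.4% of all genes tested, and DESeq2 also called 0. At an unadjusted p under 0.05 there were 2, SREBF2 at 0.54 ± 0.20 and INSIG2 at 0.24 ± 0.10 on the log2 scale (edgeR adjusted p = 0.112 and 0.15). With each library's trend with GC content removed, SREBF2 was at 0.45 in the joint fit and passed the threshold (edgeR adjusted p = 0.0324). For INSIG1, whose estimates had opposite signs in the 2 lines, the joint value was 0.40 ± 0.31 (edgeR adjusted p = 0.405).

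After 24 h in ethanol, the lines differed in the levels of 5 of the 8 genes, against a background of 72.0% of all genes tested. The comparison shares its KMS11 ethanol and H929 ethanol libraries with the responses above, and a line and any batch in which it was processed cannot be told apart. INSIG1 was 3.65-fold higher in KMS11 (log2 1.87 ± 0.20, edgeR adjusted p = 1.46e-05) and MBTPS2 2.14-fold higher (1.10 ± 0.15, edgeR adjusted p = 9.54e-05). MBTPS1, INSIG2 and SREBF1 were lower by 0.55 ± 0.08, 0.65 ± 0.13 and 1.06 ± 0.28 on the log2 scale (edgeR adjusted p = 0.000206, 0.00135 and 0.00631). SREBF2, SCAP and STARD4 did not pass, with log2 values of 0.15, -0.36 and -0.18. SREBF1 missed the threshold at -0.74 without H929 ethanol replicate 1 (edgeR adjusted p = 0.0535), and SCAP passed it without KMS11 fluvastatin replicate 1 or 2 (edgeR adjusted p = 0.0299 and 0.0322). Per transcript length, on the log2(TPM + 1) scale, the differences of MBTPS1 and INSIG2 were 0.01 and -0.24 and did not pass (limma adjusted p = 0.941 and 0.203). The SREBF2 difference was 1.19 on that scale and passed (limma adjusted p = 0.000378). Its mean effective length in ethanol was 2901 bases in H929 and 1978 bases in KMS11, whose part in the value was not tested.

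Per transcript length, the order of the genes differed between the lines. In H929 in ethanol the mean TPM levels were 50.3 for SREBF1, 31.3 for INSIG1, 27.6 for MBTPS1, 17.7 for SREBF2, 8.4 for SCAP, 7.71 for INSIG2, 7.05 for STARD4 and 1.67 for MBTPS2. The ranges of SCAP and INSIG2, and of INSIG2 and STARD4, overlapped, and those of other neighbours did not. The order depends on the effective length, whose mean there was 1122 bases for SREBF1, 2483 for INSIG1 and 3703 for MBTPS1. By mean CPM the order of these genes was MBTPS1 (219), INSIG1 (166) and SREBF1 (122). In KMS11 in ethanol INSIG1 led with 158 TPM, followed by SREBF2 at 41.0, SREBF1 at 40.4, MBTPS1 at 27.9, SCAP at 14.5, STARD4 at 8.18, INSIG2 at 6.31 and MBTPS2 at 5.12 TPM. There SREBF2 and SREBF1 overlapped and no other neighbours did. In fluvastatin-treated KMS11 cells INSIG1 averaged 330 ± 29.5 TPM (SD, n = 2) and SREBF2 56.8 ± 4.44 TPM, while in fluvastatin-treated H929 cells SREBF1 still led at 43.0 ± 12 TPM. In bulk RNA, fewer cells of a kind and less RNA per cell cannot be told apart.

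The members spanned 34.4% (STARD4) to 63.2% (SREBF1) GC, and libraries differed in how their counts followed GC content. At the GC content of SREBF1, the fitted trend in log2 counts was -0.638, -0.641 and -0.467 in 3 KMS11 libraries but 0.174 in KMS11 fluvastatin replicate 1, and it was 0.637, 0.323, 0.484 and 0.128 in the 4 H929 libraries. With each library's trend removed as an offset, the KMS11 estimates of INSIG1 and STARD4 were 1.20 and 0.79, and SREBF2, at 0.65, passed the threshold (edgeR adjusted p = 0.00561), as did INSIG2 at 0.30. In H929 STARD4 passed at -0.52 (edgeR adjusted p = 0.00292), and MBTPS2 was at 0.31 (edgeR adjusted p = 0.0263). The differences between the lines were 1.68 for INSIG1 and 1.31 for STARD4, but -0.35 for MBTPS2, which no longer passed (edgeR adjusted p = 0.0795), 0.40 for SREBF2 and 0.01 for SCAP (edgeR adjusted p = 0.0856 and 0.996). Between the lines in ethanol, the GC-rich genes changed most. SREBF1 went from -1.06 to 0.08, and SCAP from -0.36 to 0.63 (edgeR adjusted p = 8.26e-06). The lower SREBF1 level of KMS11 was not seen with the trend removed, and on the log2(TPM + 1) scale its difference was -0.29 (limma adjusted p = 0.247), whereas that of SCAP was 0.72 (limma adjusted p = 0.00114). The mean effective length of SCAP in ethanol was 2956 bases in H929 and 1937 bases in KMS11, whose part in its TPM difference was not tested. With the trend removed, SREBF2 went from 0.15 to 0.64 (edgeR adjusted p = 0.00041) and STARD4 from -0.18 to -0.54 (edgeR adjusted p = 0.00104). Removal of the trend also moved the balance of all calls, from 339 higher and 70 lower to 841 higher and 736 lower in KMS11, and from 854 and 516 to 1423 and 1749 over both lines.

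**Figure D3:**
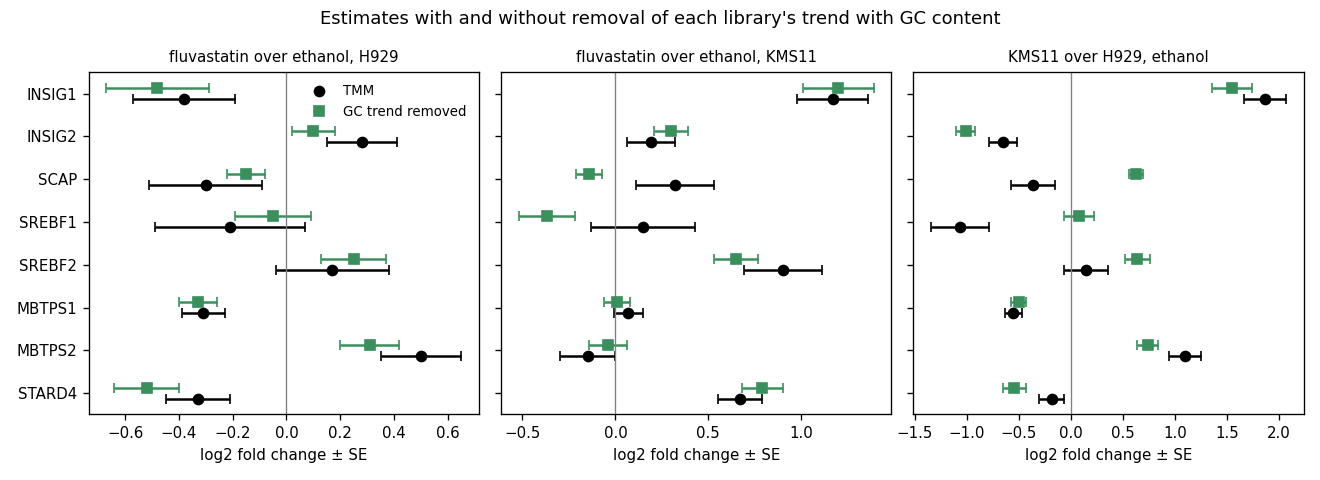
Log2 fold changes ± SE (horizontal axes) of the 8 genes for fluvastatin in H929, fluvastatin in KMS11, and KMS11 over H929 in ethanol, by TMM scaling (black circles) and with each library's GC trend removed (green squares). INSIG1 in KMS11 stays at 1.17 and 1.20, while SREBF1 between the lines goes from -1.06 to 0.08.

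Genes around this machinery were described by 5 lists, written with earlier results of these data known, so that their counts are no independent evidence of direction. For 19 enzymes of sterol synthesis under SREBP control, the downstream readout of SREBF2, 18 rose and 0 fell in KMS11, against 2.58% and 0.533% of all genes tested, with a median log2 fold change of 1.24 beside 0.004 for all genes. MVD, HMGCS1 and TM7SF2 had the largest values. MVD, which makes isopentenyl diphosphate, held 8.59 and 8.29 CPM in ethanol and 50.7 and 28.3 CPM in fluvastatin (2.22 ± 0.30). HMGCS1, the synthase of the early pathway, went from 175 and 173 CPM to 645 and 786 CPM (2.04 ± 0.11), and the reductase gene TM7SF2 from 2.01 and 1.59 CPM to 6.72 and 4.96 CPM (1.69 ± 0.27). Their adjusted p by edgeR were 0.0042, 1.3e-05 and 0.0095. Without KMS11 ethanol replicate 1 the count of risen enzymes was 7.

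In H929 most of these enzymes fell or did not pass. There 1 rose and 7 fell, against 22.7% and 19.3% of all genes tested, with a median of -0.29 beside 0.022 for all genes. DHCR7, a reductase of the last steps, changed by -0.92 ± 0.18 and the thiolase ACAT2 by -0.66 ± 0.11 (edgeR adjusted p = 0.003 and 0.0012). The enzyme gene that rose was SC5D, at 0.48 ± 0.12 (edgeR adjusted p = 0.0095). For the difference between the lines, 17 of the 19 were higher in KMS11 and 0 lower, against 11.7% and 11.5% of all genes tested. INSIG1, STARD4 and the median of these enzymes all had positive estimates in KMS11 and negative ones in H929, where neither INSIG1 nor STARD4 passed the threshold. SREBF2, the third known target among the members, had positive estimates in both lines, at 0.90 in KMS11 and 0.17 in H929, neither past the threshold.

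Fatty acid enzymes, the readout associated with SREBF1, were tested for 8 of 9 listed, PNPLA3 having too few counts. In KMS11 4 rose and 0 fell (median 0.73), against 2.58% and 0.533% of all genes tested, and in H929 1 rose and 5 fell (median -0.59), against 22.7% and 19.3%. FASN, the fatty acid synthase, stood at 71.3 and 68.2 CPM in KMS11 in ethanol and 329.9 and 137 CPM in fluvastatin (1.74 ± 0.40), with the higher value again in KMS11 fluvastatin replicate 1. The acetyl-CoA synthetase ACSS2 changed by 1.69 ± 0.16 and the elongase ELOVL6 by 0.74 ± 0.12 there. In H929 the desaturases SCD and FADS1 changed by -1.18 ± 0.20 and -1.09 ± 0.18, and FASN by -1.08 ± 0.39. Adjusted p by edgeR were 0.047, 0.00052 and 0.012 in KMS11, and 0.0013, 0.00096 and 0.049 in H929. The difference between the lines was positive and past the threshold for 7 of the 8. Without KMS11 ethanol replicate 1 the KMS11 count fell to 1.

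Of 25 partners of the machinery, which include the ubiquitin ligases and membrane factors that degrade INSIG1 and the coat proteins that carry SCAP, 2 rose and 0 fell in KMS11 (8.0% and 0.0%, against 2.58% and 0.533% of all genes tested), and 9 rose and 6 fell in H929 (36.0% and 24.0%, against 22.7% and 19.3%). LMNA, which encodes the A-type lamins that bind SREBP1, rose in both lines, from 18.5 and 18.7 CPM to 56.3 and 36.0 CPM in KMS11 (1.31 ± 0.20, edgeR adjusted p = 0.0075) and from 259 and 212 CPM to 677 and 557 CPM in H929 (1.39 ± 0.19, edgeR adjusted p = 0.00034). RNF145, a sterol-responsive ubiquitin ligase, also rose in both lines, by 0.45 ± 0.09 in KMS11 and 0.55 ± 0.09 in H929 (edgeR adjusted p = 0.032 and 0.0012). In H929 ERLIN1 and UBE2G2, which act in the degradation of endoplasmic reticulum proteins, changed by -0.84 ± 0.13 and -0.83 ± 0.12 (edgeR adjusted p = 0.00057 and 0.00043). The count of risen partners in H929 was 4 without H929 fluvastatin replicate 2, and that in KMS11 was 0 without KMS11 ethanol replicate 1. The median over the list was near that of all genes in each line, at 0.06 in H929 and -0.04 in KMS11.

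The site-1 and site-2 proteases also cut other membrane proteins, and 6 of 8 genes for such substrates were tested, CREB3L1 and CREB3L3 being too low. In H929, where MBTPS1 fell and MBTPS2 rose, 3 rose and 0 fell (median 0.35), against 22.7% and 19.3% of all genes tested. They were the transcription factor genes CREB3L2 (0.83 ± 0.13) and CREB3L4 (0.48 ± 0.13), and GNPTAB (0.39 ± 0.11), whose product tags lysosomal enzymes. Their adjusted p by edgeR were 0.00075, 0.014 and 0.017. In KMS11 0 of the 6 passed the threshold (median 0.14), and the difference between the lines passed for none of the 6 by edgeR's test. The H929 count was 1 without H929 ethanol replicate 2.

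For intracellular sterol transport and storage, the setting of STARD4, 16 of 17 genes were tested, STAR being too low. In KMS11 2 rose and 0 fell (median 0.13), against 2.58% and 0.533% of all genes tested, namely TMEM97 and the lysosomal cholesterol exporter NPC1. TMEM97, whose product binds NPC1, went from 164 and 169.9 CPM to 233 and 246 CPM in KMS11 (0.52 ± 0.11) but from 123 and 146 CPM to 46.4 and 54.8 CPM in H929 (-1.41 ± 0.12). NPC1 went from 55.0 and 57.1 CPM to 82.2 and 76.4 CPM in KMS11 (0.50 ± 0.11). In H929 4 rose and 2 fell (median 0.16), shares of 25.0% and 12.5% that lie near the 22.7% and 19.3% of all genes tested. SCARB1, the high-density lipoprotein receptor gene, was the second that fell there (-1.35 ± 0.14), and OSBPL2, a sterol-binding protein gene, had the largest rise at 0.54 ± 0.13. The adjusted p by edgeR were 0.039 and 0.037 for TMEM97 and NPC1 in KMS11, and 2.1e-05, 6.6e-05 and 0.0082 for TMEM97, SCARB1 and OSBPL2 in H929. Neither KMS11 gene passed when KMS11 ethanol replicate 1 was left out (0 rises), and in H929 a single rise (1) was left without H929 ethanol replicate 1.

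**Figure D4:**
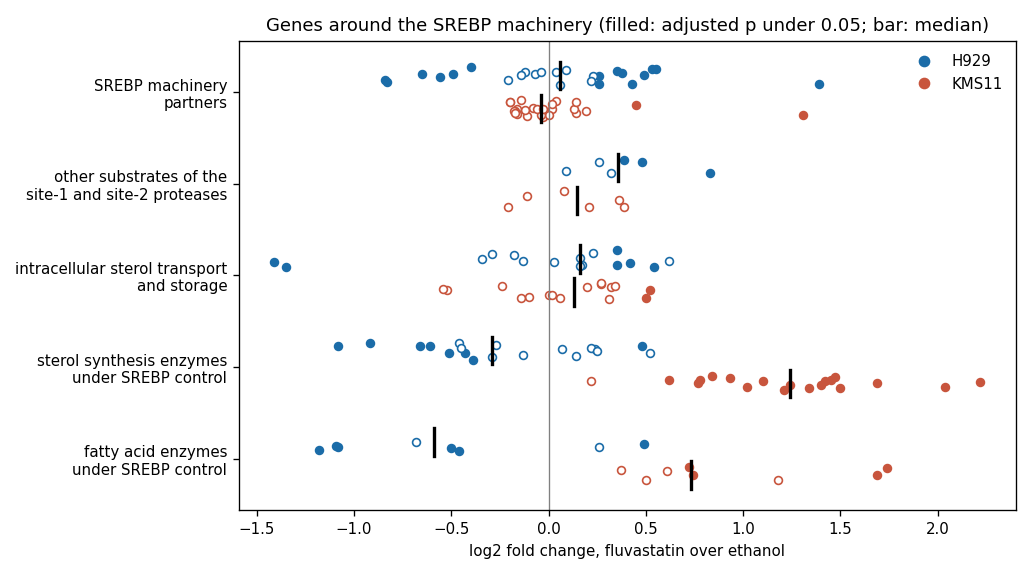
Log2 fold change of fluvastatin over ethanol (horizontal axis) for the tested genes of 5 lists in H929 (blue) and KMS11 (red), with filled points for an adjusted p under 0.05 and black bars at the medians. The sterol synthesis enzymes have a median of 1.24 in KMS11 and -0.29 in H929, while the partners of the machinery have medians of 0.06 in H929 and -0.04 in KMS11 and spread more widely in H929.

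The genes with patterns most like those of the 4 called members were sought over the 8 libraries, after log2 CPM were centred within each line. The correlations are descriptions over libraries that share line, treatment and depth, and they do not measure the size of a change. INSIG1 was closest to EPAS1 (r = 0.98), MMAB (r = 0.972) and PEG3 (r = 0.968), and STARD4 to RASSF1 (r = 0.98) and the sterol synthesis genes ACAT2 (r = 0.969) and HSD17B7 (r = 0.967). MBTPS1 was closest to the cell division genes ANLN and CENPN (r = 0.998 each) and to FAM111B (r = 0.993). MBTPS2 was closest to CHN2, AGK and ZNF160 (r = 0.995, 0.991 and 0.99). In KMS11, PEG3 held 20.5 and 21.1 CPM in ethanol and 23.6 and 22.8 CPM in fluvastatin, a small change beside that of INSIG1. EPAS1 was low there, at 0.992 and 1.2 CPM, then 2.24 and 2.4 CPM, and CHN2 held 35.1 and 36.0 CPM, then 33.8 and 35.2 CPM. Between members, INSIG1 and STARD4 had the highest correlation (r = 0.96). Next came SREBF1 with SCAP, the members of highest GC content (r = 0.86), and SREBF2 with INSIG1 (r = 0.81). The lowest values were those of SCAP with MBTPS2 (r = -0.76) and of MBTPS1 with MBTPS2 (r = -0.72). The part of the libraries' GC trends in these values was not tested.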

How the data were processed

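RNA-seq libraries of H929 and KMS11 cells kept for 24 h with fluvastatin (2 µM) or ethanol were compared. The authors depleted ribosomal RNA, used a kit that marks strand, and aligned read pairs with STAR 2.5.2b to the GRCh38 build. They deposited RSEM 1.3.0 expected counts, which are not normalized, TPM, and the effective length of each gene in bases. FPKM values were not used. Names and positions came from GENCODE release 44, a later release than that of the authors, which holds 57392 of the 58219 identifiers. Groups came from the sample labels.

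Rounded counts were fitted with edgeR 4.0.16 under R 4.3.3 (filterByExpr with minimum count 10 and minimum total 15, TMM scaling, quasi-likelihood F test, Benjamini-Hochberg adjustment over 13129 protein-coding genes, threshold 0.05). A fit with terms for line and treatment gave the joint comparison, and a fit of the 4 group means gave the rest, so that groups share 1 estimate of the spread. The SE is the log2 fold change divided by the square root of F. With libraries of at least 26702515 counts, spread between replicates rather than depth limits precision. GC content is that of the longest transcript, and its trend in each library is a smoothing spline with 6 degrees of freedom. The fits were tested on simulated data, with 100 genes changed 1.5-fold and 100 changed 2-fold among 13129. That is a far smaller share than was called in H929 (42.0%) or for the difference between the lines (23.2%). The simulated lines responded alike in the joint comparison, and a change within H929 alone was not simulated. The recovered shares below therefore need not carry over to these data. Of genes changed 1.5-fold, they recovered 56% over both lines, 24% within KMS11 and 7% for the difference between the lines. At 2-fold the shares were 81%, 62% and 44%, and 7.43%, 8.51% and 10.53% of calls were false. A gene that did not pass can therefore not be taken as unchanged.

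Members and lists were chosen with earlier results of these data known. Named genes were the 8 members, up to 3 called genes per list and line with the largest change, and the 3 genes (mean log2 CPM of at least 1) most correlated with each called member, and 1 result that concerns a withheld item is not reported here. The 22 alternative settings include DESeq2 1.42.0, limma 3.58.1 on log2(TPM + 1), other scalings and filters, all annotated genes, offsets for GC content and length, a replicate block, single lines, and leaving out each library.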

Additional observations from a re-analysis of the deposited data

Results flagged for a closer look

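The 4 genes below were marked because the test of the difference between the lines, KMS11 response minus H929 response, passed the threshold (edgeR's quasi-likelihood test, Benjamini-Hochberg adjusted). The difference in log2 fold change was 1.55 for INSIG1, with 1.17 in KMS11 and -0.38 in H929, and 1.0 for STARD4, with 0.67 in KMS11 and -0.33 in H929. It was 0.38 for MBTPS1 and -0.66 for MBTPS2, where the change passed the threshold in H929 and not in KMS11. With 2 replicates per group, no single library could be tested as standing apart within its group.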

How the results depend on the processing

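Over the 22 alternatives, 643 of the values of single members kept direction and side of the threshold, 43 newly passed it, 45 no longer passed and 45 changed sign, and the cause was not tested. With 1 library left out, the number of the 8 members called ranged from 0 to 3 in H929, 0 to 4 in KMS11, 2 to 5 for the difference between the lines, 4 to 6 between the lines in ethanol and 0 to 0 over both lines. The number called was otherwise 4 without a filter and 0 by limma in H929 and 1 by limma in KMS11, 4 in KMS11 and 1 over both lines with the GC offset, with or without effective length, 2 by limma for the difference, and at an adjusted p under 0.01 it was 0 in each line and 2 for the difference. The labels do not say what a replicate number marks, and the deviations of same-numbered libraries had r = 0.774 in H929, where they moved together, and -0.078 in KMS11, over 5561 genes, so that the numbers were not used as pairs. With the replicate block 4 members were called in H929 (INSIG1 at -0.42, adjusted p = 0.0113, and STARD4 at -0.34, adjusted p = 0.0283, joined the protease genes), 3 in KMS11 (SREBF2 joined at 0.89, adjusted p = 0.00138), 5 for the difference (SREBF2 joined at 0.72, adjusted p = 0.00802) and 0 over both lines by edgeR, where calls among all genes fell from 1370 to 158 and rose from 409 to 1637 in KMS11. DESeq2 called 657 genes higher and 269 lower in KMS11 and 1317 and 1221 over both lines. For SCAP over both lines the log2 value of 0.02 became 0.00 with median-of-ratios scaling or DESeq2, -0.02 with all annotated genes, -0.30 by limma, -0.01 with the replicate block and -0.15 with the GC offset, with or without length. With the GC offset, then with length added, KMS11 gave -0.37 and -0.34 for SREBF1 and -0.14 and -0.14 for SCAP (limma -0.06 and -0.25), the difference between the lines gave -0.32 and -0.38 for SREBF1 and 0.20 and 0.20 for INSIG2, and the lines in ethanol gave 0.08 and 0.04 for SREBF1 and 0.63 and 0.60 for SCAP. With length added, SREBF1 was 0.05 in H929 and MBTPS1 0.00 in KMS11. By limma, MBTPS1 was -0.07 in KMS11, and the lines in ethanol differed by 0.72 for SCAP, 0.01 for MBTPS1 and 0.19 for STARD4. With 1 library left out, values ran over both lines from -0.20 to 0.15 for SREBF1, -0.21 to 0.15 for SCAP and -0.01 to 0.33 for STARD4, in H929 from -0.69 to 0.16 for SREBF1 and -0.12 to 0.45 for SREBF2, in KMS11 from -0.14 to 0.34 for SREBF1, -0.05 to 0.57 for SCAP and -0.02 to 0.11 for MBTPS1, for the difference from -0.01 to 0.83 for SREBF1 and -0.23 to 0.05 for INSIG2, and in ethanol from -0.08 to 0.43 for SREBF2. In the lists, the GC offset gave 11 falls of sterol enzymes and 5 rises of protease substrates in H929, with length added 11 falls of partners, limma gave 4 rises of partners and 1 of transport genes in H929 and 2 of fatty acid enzymes in KMS11, and the replicate block gave 3 rises of sterol enzymes in H929 and 8 of fatty acid enzymes in KMS11. Where 1 library is left in a group, it is assumed to vary like the other groups.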
